A study of Homo sapiens with 18 samples.

Results

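The suppressors of cytokine signalling are a family of 8 genes, SOCS1 to SOCS7 and CISH, and all 8 were found among the 57500 genes counted in THP-1 cells. Members were taken by gene symbol. THP-1 is a human monocytic leukaemia line. The cells carried a lentiviral short hairpin RNA without a target (shNT), against NR4A2 (shNR4A2) or against NR4A3 (shNR4A3), and each hairpin was represented by 1 stable line kept under puromycin, so the hairpin and the history of its line cannot be told apart. NR4A2 and NR4A3 encode orphan nuclear receptors that act as transcription factors and are induced early after inflammatory stimulation. Each line was left unstimulated (control) or received LPS, the bacterial lipopolysaccharide sensed by TLR4, at 2.5 μg/ml for 2 h, and 3 libraries of polyadenylated RNA were sequenced in each of the 6 groups, 18 in all. Totals of reads counted on genes ran from 16171161 to 23929138 per library, with a median of 19639071.

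Cytokines that signal through JAK kinases activate STAT transcription factors, and STATs in turn switch on SOCS genes, whose proteins close the loop. Each SOCS protein holds an SH2 domain that binds phosphorylated tyrosines and a SOCS box that recruits Elongin B, Elongin C and Cullin 5, which together form a ubiquitin ligase. SOCS1 and SOCS3 also carry a short kinase inhibitory region that blocks JAKs. SOCS3 is known in macrophages for restraining IL-6 signalling through the shared receptor IL6ST, SOCS1 for restraining interferon signalling, and CISH and SOCS2 for restraining cytokines that use STAT5. SOCS4 to SOCS7 are less tied to STAT activation and have been linked to growth factor receptors and other tyrosine kinases.

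The labelled cell type was checked against marker genes. All 8 monocyte markers had a mean TPM of at least 1 (TPM is the count over the deposited gene length, set to an equal total in each library), and SPI1 was the most abundant at 776 TPM. The 3 T cell, 3 erythroid, 3 epithelial and 3 fibroblast markers all had means under 1 TPM. The hairpin targets were lower in their lines. NR4A2 was 47.1% lower in shNR4A2 cells than in shNT cells without LPS and 66.2% lower with LPS, and NR4A3 was 83.1% and 45.5% lower in shNR4A3 cells.

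Promoter sequence is shown for the pair of members that fell most with LPS in shNT cells, CISH and SOCS1, because their upstream windows differ in the signal-dependent motifs they hold. RefSeq windows (GRCh38.p14, 250 bases before to 50 after a start site) were at hand for 5 of the 8 members, SOCS1, SOCS3, SOCS4, SOCS6 and CISH. Both strands were searched for the STAT motif TTCNNNGAA, the IRF motif GAAANNGAAA, the NBRE AAAGGTCA bound by NR4A monomers, and the NF-kappaB consensus. In the lines that follow, capitals mark STAT motifs in CISH and the IRF motif in SOCS1, and both genes lie on the minus strand. The CISH stretch is chr3:50611832-50612024 and the SOCS1 stretch chr16:11256205-11256454, both upstream of the start of the gene.
CISH: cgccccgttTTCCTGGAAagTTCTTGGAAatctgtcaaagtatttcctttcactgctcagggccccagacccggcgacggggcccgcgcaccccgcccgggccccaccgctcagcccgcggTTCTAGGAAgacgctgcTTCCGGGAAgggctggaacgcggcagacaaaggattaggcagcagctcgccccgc
SOCS1: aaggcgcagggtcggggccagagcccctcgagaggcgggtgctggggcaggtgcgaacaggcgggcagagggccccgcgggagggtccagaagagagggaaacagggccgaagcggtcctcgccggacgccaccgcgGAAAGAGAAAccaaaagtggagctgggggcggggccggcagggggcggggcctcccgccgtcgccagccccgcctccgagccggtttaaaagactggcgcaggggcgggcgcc
The CISH window held 4 STAT motifs, which begin 241, 230, 129 and 112 bases before the RefSeq start and do not overlap. At least 1 STAT motif was present in 7.66% of 35116 promoter windows of the same length, and 7 windows (0.0199%) held 4 or more. The SOCS1 window held 1 IRF motif, 113 bases before the start, and such a motif was present in 3.57% of windows. No member window held the NBRE, which was in 1.22% of windows, or the NF-kappaB consensus, which was in 5.91%. These are matches of letters and not measured binding, and the SOCS3 windows do not reach the start that the deposited annotation gives for that gene.

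In unstimulated shNT cells, the 8 members spanned a narrow range of levels. SOCS6 was the most abundant at 24.2 ± 2.41 TPM (SD, n = 3), followed by SOCS4 at 23.3 ± 3.23, SOCS7 at 19.7 ± 1.32, SOCS5 at 19.1 ± 2.00 and SOCS1 at 18.7 ± 7.41. The libraries of each of these 5 genes overlapped those of its neighbour in this order. CISH (9.04 ± 0.880 TPM) and SOCS3 (8.71 ± 1.63 TPM) came next and overlapped each other, and SOCS2 was the least abundant at 4.05 ± 0.631 TPM. With LPS the order changed. SOCS3 moved from the seventh place to the first, and CISH from the sixth to the last. The summed level of the family ran from 100.3 to 132 TPM in the 9 control libraries and from 332 to 511 TPM in the 9 libraries with LPS. SOCS3 made up between 5.86% and 9.94% of that sum without LPS and between 76.9% and 86.4% with it. Levels here are shares of the RNA in bulk cultures, where fewer expressing cells and less RNA per cell cannot be told apart.

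**Figure D1:**
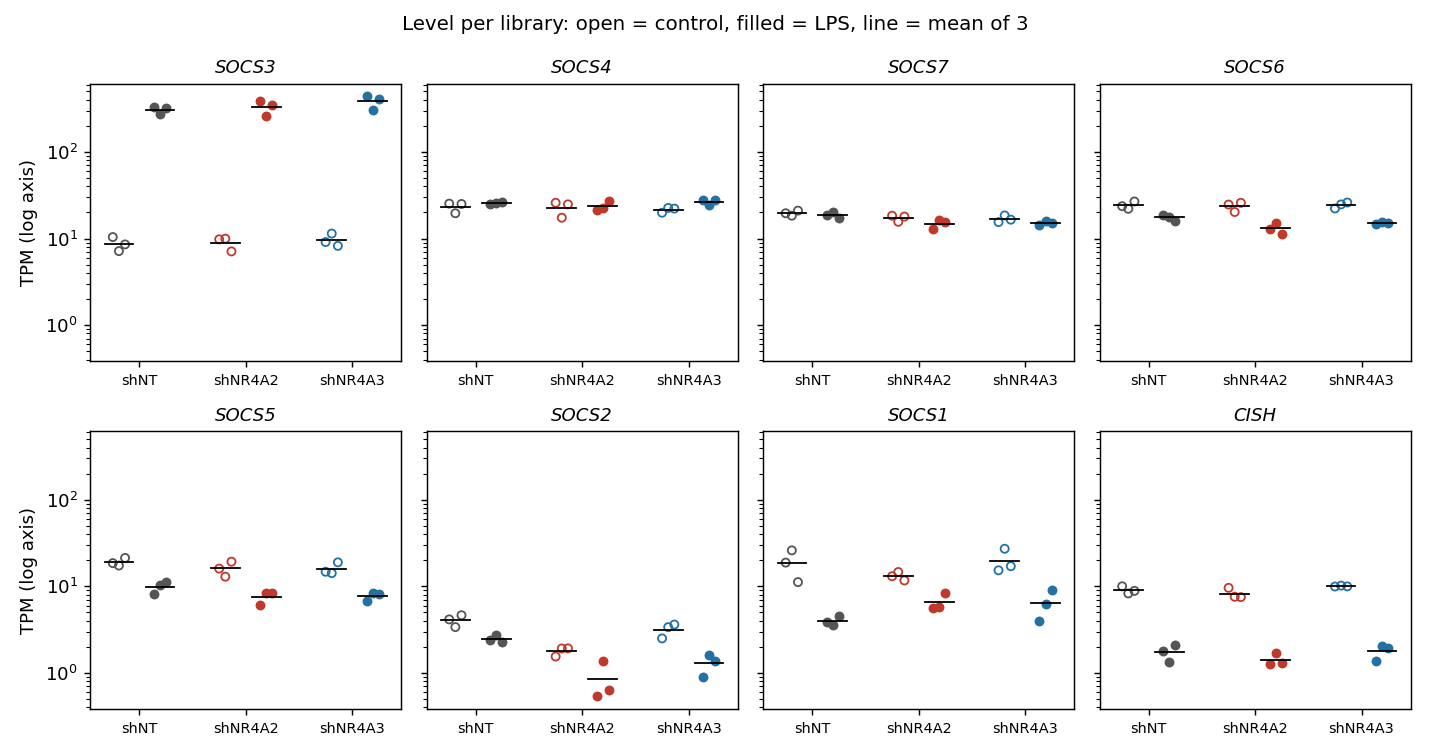
Level of each SOCS family gene in each of the 18 libraries, in TPM on a log axis, by line (horizontal axis). Open points are control and filled points LPS libraries, and lines are means of 3. SOCS3 rises from about the level of CISH to far above every other member in all 3 lines, while CISH and SOCS1 fall and SOCS2 is lowest in shNR4A2 cells.

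The first question was how LPS changes the family in each line. SOCS3 rose about 41-fold or more in every line, CISH and SOCS5 fell in every line, SOCS1 fell in shNT and shNR4A3 cells, and SOCS7 was not called. Fold changes and their standard errors come from edgeR's quasi-likelihood test with TMM normalization, with p-values adjusted by Benjamini and Hochberg over all genes tested and a call at an adjusted p under 0.05. In shNT cells 6 of the 8 members were called, 2 higher and 4 lower, where 24.9% of all 15711 genes tested were called (11.6% higher and 13.3% lower). In shNR4A2 cells 4 members were called, 1 higher and 3 lower, against 19.3% of all genes (9.23% higher and 10.1% lower). In shNR4A3 cells 7 members were called, 2 higher and 5 lower, against 28.1% of all genes (13.1% higher and 15% lower). A fit with replicate number as a blocking term called 7 members in shNR4A2 cells too, where the block raised the share of all genes called to 30.1%. The median log2 fold change of the 8 members was -0.37, -0.65 and -0.64 in shNT, shNR4A2 and shNR4A3 cells, and the median over all genes tested lay between -0.016 and -0.011.

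SOCS3 (ENSG00000184557, chr17:78356778-78360077 in GRCh38, minus strand), the JAK inhibitor that acts on IL6ST receptors, was at 10.4, 7.16 and 8.56 TPM in the control libraries of shNT cells and at 333, 271 and 318 TPM with LPS. In shNR4A2 cells it went from 9.79, 9.97 and 7.10 TPM to 386, 261 and 353 TPM. In shNR4A3 cells it went from 9.11, 11.4 and 8.23 TPM to 440.5, 303 and 415 TPM. Every LPS library stood more than an order of magnitude over every control library, and replicate 2 was the lowest of its LPS group in all 3 lines. The log2 fold change was 5.36 ± 0.145 (SE, n = 3 per group) in shNT cells (edgeR adjusted p = 3.76e-12), 5.50 ± 0.226 with shNR4A2 (4.31e-09) and 5.57 ± 0.197 with shNR4A3 (7.19e-09). By p-value SOCS3 ranked 24, 30 and 27 among all genes tested in the 3 lines.

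CISH (ENSG00000114737, chr3:50606490-50611831, minus strand), the first described member, which binds receptors that signal through STAT5, moved the other way. It was at 10.00, 8.27 and 8.85 TPM in control shNT cells and at 1.81, 1.34 and 2.11 TPM with LPS. The control libraries held 9.60, 7.57 and 7.50 TPM in shNR4A2 cells and 9.94, 10.2 and 9.97 TPM in shNR4A3 cells. With LPS the values were 1.26, 1.70 and 1.30 TPM and 1.37, 2.05 and 1.93 TPM. No LPS library reached the lowest control library in any line. The log2 fold change was -2.14 ± 0.187 in shNT cells (edgeR adjusted p = 1.31e-06), -2.27 ± 0.207 with shNR4A2 (6.41e-06) and -2.27 ± 0.169 with shNR4A3 (2.70e-06), or 4.40-, 4.81- and 4.81-fold lower. The LPS libraries held 32 to 67 CISH reads each. MAPKAPK3 on the opposite strand shares 218 exon bases with CISH, 4.26% of its exons, and had 1208 to 2176 reads per library. The strand setting of the counting is not given in the sources used here, so reads from the shared bases cannot be told apart.

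SOCS1 (ENSG00000185338, chr16:11254405-11256179, minus strand), which blocks JAKs downstream of interferon receptors, also fell with LPS, with more spread between libraries. It was at 18.8, 26.0 and 11.2 TPM in control shNT cells and at 3.84, 3.53 and 4.60 TPM with LPS. In shNR4A2 cells it was at 13.1, 14.6 and 11.7 TPM without LPS and at 5.61, 5.75 and 8.37 TPM with it. In shNR4A3 cells it was at 15.3, 27.1 and 17.1 TPM without LPS and at 3.92, 6.18 and 9.16 TPM with it. The control and LPS libraries did not overlap in any line, and the gap was narrowest in shNR4A2 cells. The log2 fold change was -2.00 ± 0.311 in shNT cells (edgeR adjusted p = 0.000301) and -1.37 ± 0.299 with shNR4A3 (adjusted p = 0.00534). In shNR4A2 cells it was -0.72 ± 0.247, with a 95% interval from -1.26 to -0.18, and missed the threshold (adjusted p = 0.0612). With the replicate block it passed there (log2 fold change -0.72, adjusted p = 0.0377), as it did with no filter on low counts (0.0492) and without the third shNR4A2 LPS library (-0.94, adjusted p = 0.0281). The shNT libraries held 72 to 153 SOCS1 reads each without LPS and 24 to 35 with it, and the spread in TPM was wider without LPS.

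SOCS2 (ENSG00000120833, chr12:93569814-93583487, plus strand), which restrains growth hormone and STAT5 signalling, was at 4.15, 3.38 and 4.63 TPM in control shNT cells and at 2.37, 2.74 and 2.28 TPM with LPS. In shNR4A2 cells it was at 1.54, 1.91 and 1.92 TPM without LPS and at 0.54, 1.37 and 0.63 TPM with it. In shNR4A3 cells it was at 2.50, 3.37 and 3.61 TPM without LPS and at 0.90, 1.61 and 1.36 TPM with it. The LPS libraries lay under the control libraries in each line. The fall passed the test in shNR4A3 cells (log2 fold change -1.07 ± 0.233, edgeR adjusted p = 0.00513). In shNT cells the log2 fold change was -0.50 ± 0.161 (adjusted p = 0.0355), a call that was lost with DESeq2 (adjusted p = 0.103), with no filter on low counts (0.0651) and with all 18 libraries in 1 fit (0.119). The same call was also lost without control replicate 1 (0.0998), control replicate 3 (0.118), LPS replicate 1 (0.0913), LPS replicate 2 (0.0542) or LPS replicate 3 (0.102). In shNR4A2 cells the log2 fold change was -0.83 ± 0.310 and was not called (adjusted p = 0.0835), but passed with the replicate block (-0.88, adjusted p = 0.0229), with no filter on low counts (0.0377), with all 18 libraries in 1 fit (0.0227) and without the second LPS library (-1.27, adjusted p = 0.00926).

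SOCS5 and SOCS6 fell by smaller amounts. SOCS5, which has been linked to EGF receptor and IL-4 signalling, was at 12.9 to 21.3 TPM in the 9 control libraries and at 6.10 to 11.1 TPM in the 9 LPS libraries, with no overlap between the states. Its log2 fold change was -0.74 ± 0.130 in shNT cells (edgeR adjusted p = 0.000824), -0.82 ± 0.174 with shNR4A2 (0.00538) and -0.82 ± 0.148 with shNR4A3 (0.00176). SOCS6, which binds the receptor KIT among other tyrosine kinases, was at 20.3 to 26.8 TPM without LPS and at 11.4 to 18.7 TPM with it. It was called lower in shNR4A2 cells (log2 fold change -0.58 ± 0.140, adjusted p = 0.0111) and with shNR4A3 (-0.46 ± 0.0981, 0.00486), and in shNT cells it was at -0.24 ± 0.0982 (adjusted p = 0.0877). The call in shNR4A2 cells was lost without control replicate 3 (adjusted p = 0.0508) or LPS replicate 3 (0.0556).

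SOCS4 was the other member called higher, though by little. It is a close relative of SOCS5 and has been linked to EGF receptor turnover. Its log2 fold change was 0.35 ± 0.102 in shNT cells (edgeR adjusted p = 0.0222) and 0.54 ± 0.111 with shNR4A3 (adjusted p = 0.00358), and 0.33 ± 0.164 in shNR4A2 cells (adjusted p = 0.192, or 0.0454 with the replicate block). In shNT cells the 2 states overlapped in TPM, 19.6 to 25.3 without LPS and 24.9 to 26.2 with it, and the call was lost without control replicate 2 (adjusted p = 0.0847), without LPS replicate 3 (0.0705) and with all 18 libraries in 1 fit (0.0806). SOCS7, which has been linked to insulin signalling, was not called in any line, with log2 fold changes of 0.15 ± 0.0901, 0.048 ± 0.126 and 0.082 ± 0.0917. The direction for SOCS7 depends on the scale. TPM ratios of LPS to control were lower than TMM fold changes, with a median log2 TPM ratio over all tested genes of -0.23, -0.28 and -0.24 in shNT, shNR4A2 and shNR4A3 cells, and on the TPM scale SOCS7 stood at -0.071, -0.22 and -0.15. All other members kept their direction on both scales.

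**Figure D2:**
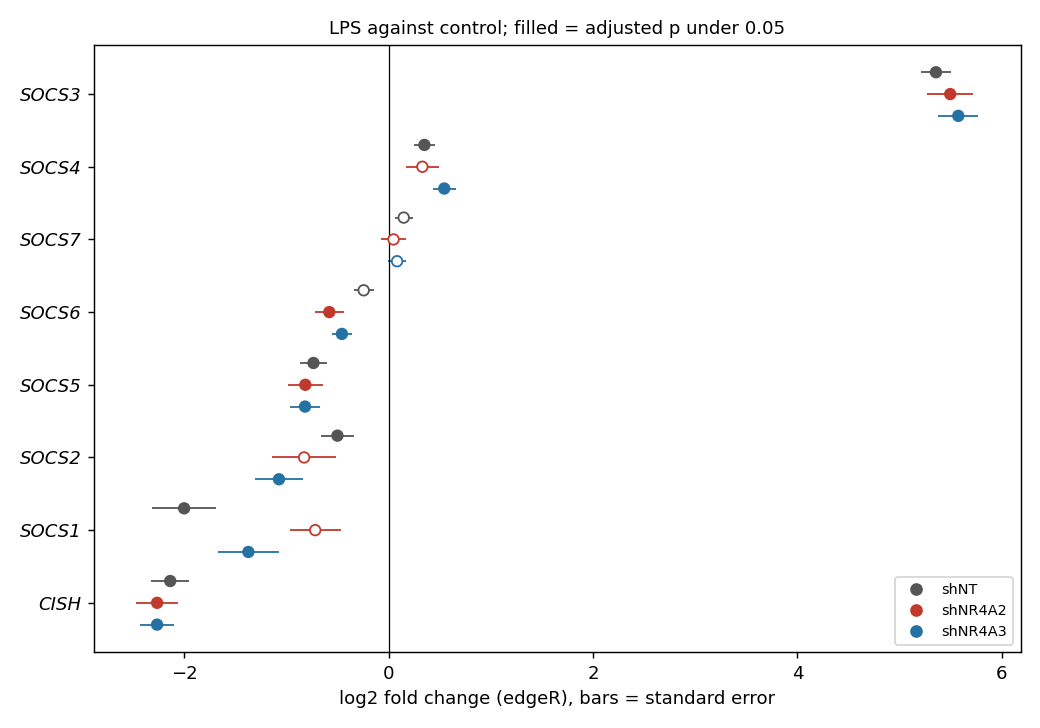
Log2 fold change of LPS against control (horizontal axis) for each SOCS family gene in 3 lines, from edgeR, with bars for the standard error (n = 3 per group). Filled points passed an adjusted p of 0.05. SOCS3 stands alone above 5 in every line, and CISH, at -2.14 to -2.27, is the lowest member except that SOCS1 lies beside it in shNT cells.

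Whether the size of the LPS response differed between lines was tested as an interaction over 12 libraries. No gene was called in either interaction (0% of 16674 genes for shNR4A2 and 0% of 16428 for shNR4A3), with 365 and 824 genes at an unadjusted p under 0.05 in edgeR and 2 and 10 genes called by DESeq2. Of the 8 members, SOCS1 had the largest interaction with shNR4A2. Its fall was smaller there by 1.29 ± 0.428 on the log2 scale (95% interval 0.38 to 2.20, edgeR adjusted p = 1.00). With shNR4A3 the SOCS1 difference was 0.63 ± 0.489 and the SOCS2 difference -0.58 ± 0.269 (edgeR adjusted p = 0.985). The intervals for SOCS3 ran from -0.44 to 0.73 with shNR4A2 and from -0.33 to 0.76 with shNR4A3, and for CISH from -0.71 to 0.46 and from -0.67 to 0.40. These intervals are not adjusted for the number of genes tested.

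The next question was what depletion of NR4A2 or NR4A3 does to the family at a fixed state. In the fit without a replicate block, SOCS2 was the only member called in any of the 4 comparisons with shNT cells. It was lower in 3 of them. With the block, SOCS1, SOCS5, SOCS6 and SOCS7 also passed in shNR4A2 cells with LPS, where 28.1% of all genes did. SOCS3 and SOCS7 also passed with it in shNR4A3 cells with LPS, where 21.8% of all genes did. The values that follow are from the fit without the block. SOCS2 changed as follows. In shNR4A2 cells it was 2.26-fold lower without LPS and 2.82-fold lower with LPS, and in shNR4A3 cells 1.84-fold lower with LPS. These comparisons share the shNT libraries. With shNR4A2, 6.45% of genes were called without LPS (2.82% lower) and 6.96% with LPS (2.65% lower). With shNR4A3, 7.23% were called without LPS and 6.45% with LPS (2.46% lower).

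Without LPS, the 3 shNR4A2 libraries held 1.54 to 1.92 TPM of SOCS2 and the 3 shNT libraries 3.38 to 4.63 TPM. The log2 fold change was -1.18 ± 0.180 (edgeR adjusted p = 0.00301), and the call held under all 11 alternative settings, with adjusted p between 1.81e-06 and 0.0152. With LPS, the shNR4A2 libraries held 0.54 to 1.37 TPM and the shNT libraries 2.28 to 2.74 TPM, and the log2 fold change was -1.49 ± 0.294 (adjusted p = 0.0184). That call was lost without shNT LPS replicate 1 (log2 fold change -1.52, adjusted p = 0.0565), replicate 2 (-1.44, 0.0689) or replicate 3 (-1.53, 0.0538), or without shNR4A2 LPS replicate 1 (-1.29, 0.0569). The 3 shNR4A2 LPS libraries held 18 to 50 SOCS2 reads each. SOCS2-AS1, an antisense gene that shares 277 exon bases (4.09%) with SOCS2, had 5 to 17 reads per library.

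In shNR4A3 cells without LPS, SOCS2 overlapped the shNT libraries (2.50 to 3.61 TPM), with a log2 fold change of -0.31 ± 0.177, a 95% interval from -0.69 to 0.070 and an edgeR adjusted p of 0.353. With LPS the shNR4A3 libraries (0.90 to 1.61 TPM) lay under those of shNT cells, with a log2 fold change of -0.88 ± 0.213 (adjusted p = 0.0388). Leaving out any of the 3 shNT LPS libraries ended this call (adjusted p = 0.0795, 0.138 and 0.0878 without replicates 1, 2 and 3), as did leaving out shNR4A3 LPS replicate 1 (0.106) or replicate 3 (0.0942). Between the knockdown lines, SOCS2 was lower in shNR4A2 than in shNR4A3 cells without LPS (log2 fold change -0.86 ± 0.206, adjusted p = 0.0403), where 3.08% of genes were called. That call was lost without shNR4A2 control replicate 1 (0.132), 2 (0.0571) or 3 (0.0828), or without shNR4A3 control replicate 2 (0.0953) or 3 (0.174). With LPS the difference was -0.61 ± 0.354 (adjusted p = 0.418), no member was called, and 2.33% of genes were.

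In the fit without a replicate block, the other 7 members were not called in any comparison with shNT cells. SOCS1 with LPS was at 5.61 to 8.37 TPM in shNR4A2 cells against 3.53 to 4.60 TPM in shNT cells, with no overlap and a log2 fold change of 0.78 ± 0.275 (edgeR adjusted p = 0.128). Without LPS the SOCS1 value in shNR4A2 cells had the opposite sign (-0.51 ± 0.282, adjusted p = 0.331), and in shNR4A3 cells it was 0.12 ± 0.284 (0.862). In shNR4A3 cells with LPS, SOCS1 overlapped the shNT libraries (0.74 ± 0.324, adjusted p = 0.205). SOCS3 with LPS had a log2 fold change of 0.18 ± 0.174 with shNR4A2 (adjusted p = 0.592) and 0.39 ± 0.162 with shNR4A3 (0.182), and without LPS 0.041 ± 0.197 and 0.18 ± 0.180. SOCS7 had values between -0.28 and -0.18 in all 4 comparisons, and SOCS5 between -0.32 and -0.20. SOCS6 in shNR4A2 cells with LPS lay under the shNT libraries (-0.36 ± 0.112, adjusted p = 0.0876) and was between -0.15 and 0.062 in the other comparisons. CISH and SOCS4 had values within 0.26 of zero in either direction.

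Libraries with the same replicate number deviated together in the comparisons of lines, so the fit with the replicate block is set beside these results. With the block, 5 members passed in shNR4A2 against shNT cells with LPS, where 28.1% of all genes did. They were SOCS2, SOCS1 (log2 fold change 0.77, edgeR adjusted p = 0.0248), SOCS5 (-0.32, 0.0344), SOCS6 (-0.36, 0.00145) and SOCS7 (-0.28, 0.00685). In shNR4A3 against shNT cells with LPS, 3 members passed with the block, where 21.8% of all genes did, and they were SOCS2, SOCS3 (0.38, adjusted p = 0.00134) and SOCS7 (-0.24, 0.0290). The higher SOCS3 in shNR4A3 cells also passed with no filter on low counts (adjusted p = 0.00403) and without the second shNR4A3 LPS library (0.57, 0.00801). Between the knockdown lines the block added SOCS1 without LPS (-0.61, adjusted p = 0.0248, 11.6% of all genes called) and SOCS3 with LPS (-0.21, 0.00571, 23.6% of all genes called).

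Monocyte markers also differed between the lines. Their summed level ran from 992 to 1117 TPM in control shNT cells, from 1529 to 1794 TPM in shNR4A2 cells and from 1774 to 2253 TPM in shNR4A3 cells. With LPS the sums ran from 1070 to 1271, from 1622 to 1903 and from 1865 to 2290 TPM. The gap was mostly LYZ, the gene for lysozyme, at 192 ± 13.6, 615 ± 134 and 883 ± 167 TPM in the control cells (n = 3 each). In control shNT, shNR4A2 and shNR4A3 cells, CD14 was at 22.6, 50.2 and 39.9 TPM, CD33 at 38.8, 41.9 and 36.6, and FCGR1A at 96.7, 113 and 92.9. These 3 means were highest in shNR4A2 cells, where SOCS2 was lowest. The means of the other monocyte markers, LYZ among them, were highest in shNR4A3 cells. The part of these marker levels in the SOCS2 values was not tested.

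**Figure D3:**
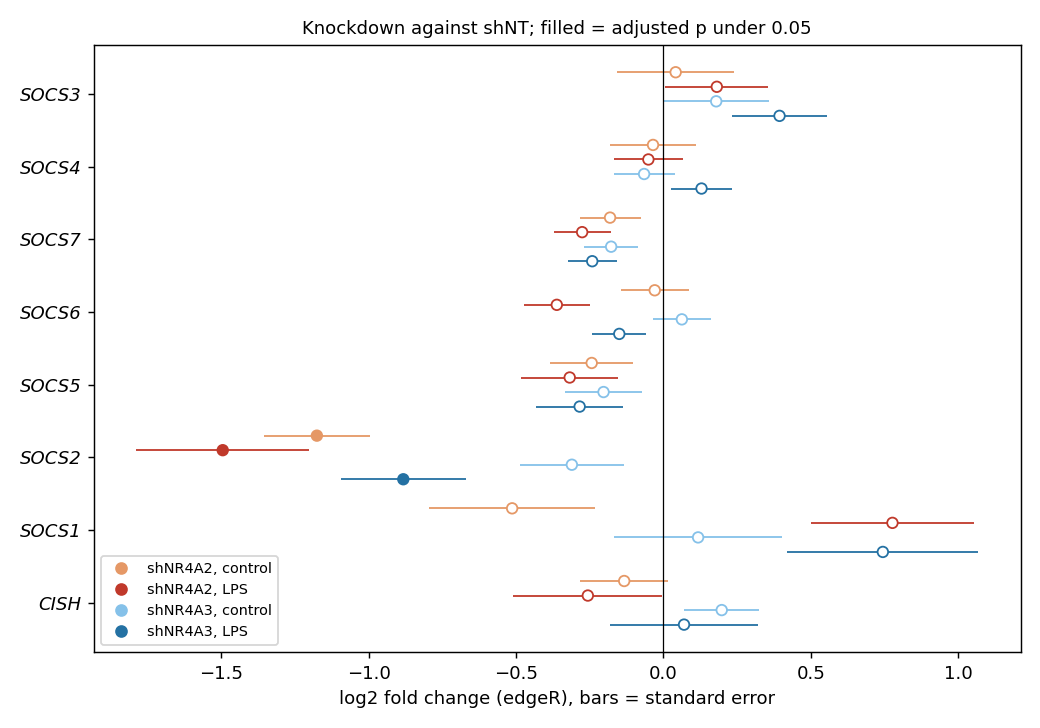
Log2 fold change of each knockdown line against shNT cells in the same state (horizontal axis) for each SOCS family gene, from edgeR, with bars for the standard error (n = 3 per group). Filled points passed an adjusted p of 0.05. SOCS2 is the only gene with filled points, at -1.18, -1.49 and -0.88. The fits drawn carry no replicate block, and with the block other members also passed in both lines with LPS.

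The rest of the pathway was examined with 90 genes in 8 lists, from ligand to target gene. Some of the 20 cytokine ligands, CSF3, IL6, IL7 and IL12B among them, were too low for a test in the comparisons without LPS. These were tested only where LPS libraries took part, so no count of ligands that rose is given. IL12B, a subunit of IL-12 and IL-23, went from 0.16 to 70.2 TPM (log2 fold change 8.91). Its control shNT libraries held 2 to 3 reads each. The filter on low counts thus favoured a rise for IL12B, and no p-value of it is given. CSF3, the neutrophil growth factor G-CSF, and IL6, the ligand whose signal SOCS3 restrains, had no count in the control shNT libraries and reached 2.75 and 2.39 TPM. CLCF1, an IL-6 family cytokine, fell (-1.21 ± 0.405, adjusted p = 0.0421). In shNR4A2 and shNR4A3 cells IL12B rose by 8.38 and 8.17 on the log2 scale and IL6 reached 7.45 and 8.14 TPM, and CLCF1 was called lower in shNR4A3 cells (-1.86).

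Of 19 receptor genes tested in shNT cells, 6 rose and 3 fell with LPS, where 11.6% of all genes rose and 13.3% fell. IL6ST, the signalling chain that SOCS3 binds, rose (log2 fold change 1.32), as did IL10RA (1.19), IFNGR2 (1.46) and IL7R (2.07). IL6R, the chain that binds IL-6 itself, fell by 0.60, 0.53 and 0.68 in shNT, shNR4A2 and shNR4A3 cells. IL21R, which uses the common gamma chain, fell by 1.70 on the log2 scale (± 0.203, edgeR adjusted p = 2.83e-05), and by 1.31 and 1.91 in shNR4A2 and shNR4A3 cells. EPOR, the erythropoietin receptor that CISH is known to bind, fell by 0.61, 0.94 and 1.03 in the 3 lines. None of the 3 JAK genes tested was called in shNT cells, none of 4 in shNR4A2 cells, and 1 of 3 in shNR4A3 cells, JAK1 (0.27). Of all genes, 24.9%, 19.3% and 28.1% were called in these lines, so the 1 of 3 was near the share of all genes. Of the 7 STAT genes, STAT4 (1.71) and STAT5A (1.20) rose in shNT cells, and both rose in the other lines too. STAT2 (0.82) and STAT3 (0.26) were also called higher in shNR4A3 cells.

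Of the 15 STAT target genes, 14 were higher with LPS in shNT cells, 11 in shNR4A2 cells and 15 in shNR4A3 cells, where 11.6%, 9.23% and 13.1% of all genes were higher. These counts include GBP1, which was too low for a test in all 3 comparisons without LPS, and CXCL10, which was too low in shNR4A2 against shNT cells without LPS, so the filter on low counts favoured a rise for both. None of the 15 was called in either interaction of line and LPS. CXCL10, an interferon-induced chemokine, went from 1.41 to 364 TPM in shNT cells (log2 fold change 8.23), and no p-value of it is given for that reason. Among 10 other inhibitors of JAK-STAT signalling, 4 rose and 1 fell in shNT cells, where 11.6% of all genes rose and 13.3% fell. The phosphatases PTPN1 (0.98) and PTPN2 (0.62) and the adaptor SH2B3 (0.67) were among those that rose, and each rose in all 3 lines. The 1 that fell, a share near that of all genes, was the SUMO ligase PIAS1 (-0.48).

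For the machinery that SOCS boxes recruit, the background was 24.9%, 19.3% and 28.1% of all genes called in shNT, shNR4A2 and shNR4A3 cells. Of 6 ligase partners, ELOC, which encodes Elongin C, was called higher in shNT cells (0.29), none in shNR4A2 cells, and RNF7 lower in shNR4A3 cells (-0.41). Of 7 other SOCS box proteins tested, 3 fell in shNT cells, where 13.3% of all genes fell. These were the substrate receptors SPSB1 (-1.12 ± 0.184, edgeR adjusted p = 0.000464) and SPSB2 (-0.97) and the small GTPase RAB40C (-0.41). SPSB2 and RAB40C fell in the other lines too, with SPSB2 at -1.13 in shNR4A2 cells and -1.03 in shNR4A3 cells. SPSB1 also fell in shNR4A3 cells (-1.08, edgeR adjusted p = 0.000691). In that line 3 of the 7 were called lower and 1 higher, where 15% of all genes were lower and 13.1% higher.

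**Figure D4:**
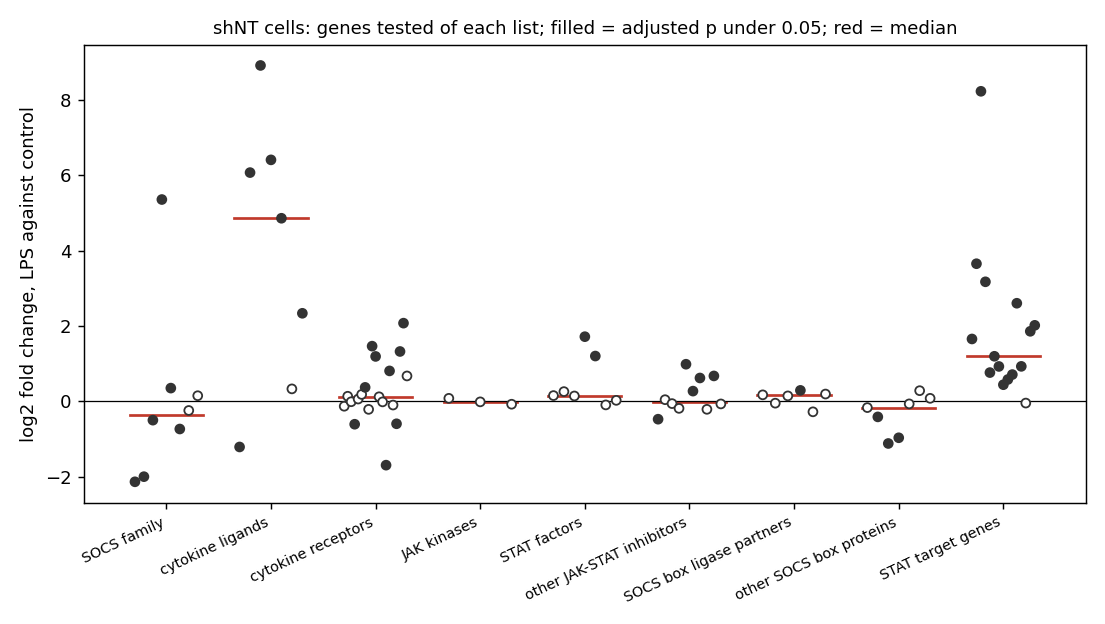
Log2 fold change of LPS against control in shNT cells (vertical axis, edgeR) for the tested genes of the SOCS family and 8 pathway lists (horizontal axis). Filled points passed an adjusted p of 0.05 and red lines are medians. IL6 and CSF3, with no count in control shNT libraries, are not drawn. SOCS3 is at 5.36, under IL12B (8.91), a gene tested only where LPS libraries took part, and CXCL10 (8.23), and JAK and ligase genes lie near 0.

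Some receptor genes were called in both knockdown lines. In shNR4A2 cells 6 of 19 receptors tested were called higher and 1 lower without LPS, and 7 and 1 of 18 with LPS, where 6.45% and 6.96% of all genes were called in either direction. IL7R, the receptor chain for IL-7 and TSLP, rose by 1.97 ± 0.141 without LPS (edgeR adjusted p = 2.05e-05) and by 1.94 ± 0.236 with it (0.00219). OSMR, the oncostatin M receptor, rose by 1.67 and 1.66 from a low level of 0.44 and 0.60 TPM. IL2RG, the common gamma chain, fell by 1.05 and 1.11. STAT3, the factor through which IL-6 induces SOCS3, fell by 0.41 ± 0.0907 without LPS (adjusted p = 0.0210), from 81.0 ± 3.79 to 61.0 ± 4.03 TPM. With LPS none of the 7 STAT genes was called against shNT cells. STAT3 was also lower than in shNR4A3 cells, by 0.41 without LPS (0.0377) and 0.43 with LPS (0.0474). SOCS3 was not called in any of these comparisons in the same fit. With the replicate block, SOCS3 was called lower in shNR4A2 than in shNR4A3 cells with LPS (-0.21, edgeR adjusted p = 0.00571), where 23.6% of all genes were called.

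In shNR4A3 cells 7 of 18 receptors were called higher and 1 lower without LPS, where 7.23% of all genes were called. IL7R rose by 0.95, IL21R by 0.74 and IFNGR1 by 0.59, IL2RG fell by 1.36 and STAT4 fell by 1.04. With LPS, IL6 was higher in both knockdown lines, by 1.69 ± 0.370 in shNR4A2 cells (edgeR adjusted p = 0.0272) and by 1.83 ± 0.429 in shNR4A3 cells (0.0343), with 2.39 TPM in shNT cells. LIF, another IL-6 family ligand, was lower in shNR4A3 cells with LPS by 1.32 ± 0.193 (adjusted p = 0.00411), at 7.57 against 19.7 TPM. IL7 was at 2.16 TPM there against 0.58 TPM in shNT cells with LPS, which held 7 to 14 IL7 reads per library. The filter on low counts thus favoured a higher value for IL7, and no test of it is given. Of the 15 STAT target genes, 11 were higher in shNR4A3 cells with LPS, where 6.45% of all genes were called, with IFIT2 at 1.27 ± 0.184 (0.00408) and IFIT3 at 1.24 (0.00174). In shNR4A2 cells with LPS 3 of the 15 were higher, IRF1 (0.37), GBP1 (1.14) and BCL3 (0.67), where 6.96% of all genes were called. Without LPS 1 of 13 tested was higher, BCL6 (0.88), a share near the 6.45% of all genes called there. None of the 15 was called between the knockdown lines with LPS. Directly between the knockdown lines, OSMR was higher in shNR4A2 cells by 1.99 without LPS and 2.30 with it, SPSB1 by 1.03 with LPS, and IL7R by 1.02 without it. IL13RA1 was lower by 0.58 and 0.49, and OSM lower by 0.99 without LPS.

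Genes with the most similar profile to each member were found by Pearson's r of log2 CPM over the 18 libraries, among 16900 genes. This describes the libraries, which share the LPS state as their main difference, and carries no test. SOCS3 was most like SOD2, which encodes mitochondrial superoxide dismutase (r = 0.999), CCL4L2, a chemokine gene with near-identical copies (0.998), and TNFAIP6 (0.998). CISH was most like TNFSF14 (0.986), C16orf54 (0.980) and ARHGEF3 (0.978), and its r with SOCS3 was -0.972. SOCS2 was most like TMEM173, which encodes STING (0.938), GMCL1 (0.937) and IRAK1BP1 (0.934), and SOCS1 like TRIM21 (0.890), SNAI3 (0.878) and DAGLB (0.876). SOCS5 was nearest to ZNF420, ZNF510 and BBS10 (0.971 to 0.967), SOCS4 to CREB1, NBN and CEMIP2 (0.946 to 0.933), SOCS6 to ACBD5, PIK3CG and SLC15A4 (0.944 to 0.924) and SOCS7 to EHBP1, TSTD2 and UNC13B (0.869 to 0.859). The likeness was closest for SOCS3, which rose most, and loosest for SOCS7, which was not called with LPS. Between these ends it did not follow the size of the LPS change in shNT cells. SOCS1, with a log2 fold change of -2.00 there, had a highest r of 0.890, and SOCS5, at -0.74, had 0.971.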

How the data were processed

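The authors trimmed reads with Trimmomatic 0.36, aligned them to GRCh38 with STAR 2.5.2b and counted them per Ensembl gene with featureCounts of Subread 1.5.2, as the submitters' processing notes name these tools. The strand setting and the annotation release are not given in the sources used here. The deposited values are whole-number counts without normalization, 1 table per library. Symbols came from GENCODE 29. Each of 9 pairwise comparisons was fitted on its own 6 libraries, and each of 2 interactions on 12, in edgeR 4.0.16 (filterByExpr, TMM, quasi-likelihood F test) in R 4.3.3. Alternatives were DESeq2 1.42.0, its size factors (RLE), no filter, a block for replicate number, 1 fit over all 18 libraries and each library left out. The study describes 3 independent experiments. Replicate numbers pair the libraries where every same-numbered pair of deviations correlates over 0.1. The lowest correlation was 0.159 to 0.354 in 8 pairwise comparisons, 0.0596 for LPS in shNT cells and 0.0167 and 0.0269 for the interactions. By this limit the 8 comparisons were paired, while LPS in shNT cells and the interactions were not. The main fits nevertheless carried no replicate block in any comparison. Their calls and standard errors in the 8 comparisons thus leave the pairing out, and the block was run as an alternative. A single gene compared in 3 against 3 libraries cannot reach an exact two-sided permutation p under 0.1. Named pathway genes are the 3 called higher and the 3 called lower with the largest log2 fold change in each comparison among genes whose groups did not overlap in TPM, and for each member the 3 genes with the most similar profile are named. Other pathway genes were named after their values were seen. The members and lists were chosen with earlier results of these data known. The result of 1 further list of marker genes is not reported here.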

Additional observations from a re-analysis of the deposited data

How the results depend on the processing

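SOCS3, CISH and SOCS5 kept their direction and their call with LPS in all 3 lines under every alternative run, as did SOCS1 in shNT and shNR4A3 cells, SOCS2, SOCS4 and SOCS6 in shNR4A3 cells, and the lower SOCS2 of shNR4A2 cells without LPS. The number of members called moved most with a block for the replicate number, from 4 to 7 for LPS in shNR4A2 cells, from 1 to 5 and from 1 to 3 for shNR4A2 and shNR4A3 against shNT cells with LPS, from 1 to 2 between the knockdown lines without LPS and from 0 to 1 between them with LPS. It was 3 for shNR4A2 against shNT cells with LPS in a fit of all 18 libraries, and 2 for shNR4A3 against shNT cells with LPS with no filter on low counts. With single libraries left out, it ran from 4 to 5 for LPS in shNT cells, under the 6 of the full set each time, from 3 to 5 for LPS in shNR4A2 cells, from 0 to 1 for shNR4A2 and from 0 to 2 for shNR4A3 against shNT cells with LPS, and from 0 to 1 between the knockdown lines without LPS. The cause was not tested. For LPS in shNT cells, where replicate numbers did not pair the libraries by the limit used, the block brought SOCS6 past the threshold (log2 fold change -0.24, edgeR adjusted p = 0.0488) and changed no other call, and in the 2 interactions it changed none. The replicate block was fitted for all 8 members in every comparison. The other alternatives were also fitted for all 8 members in every comparison, and the numbers of members called rest on all 8. Signs and calls by member were compared for all 8 with LPS and against shNT cells. Between the knockdown lines they were compared only for SOCS1, SOCS2 and SOCS3, and in the interactions only for these and CISH. Among the values so compared, signs turned only for values that were not called. With single libraries left out, the log2 fold change ran from -0.011 to 0.12 for SOCS7 with LPS in shNR4A2 cells. In shNR4A2 against shNT cells it ran from -0.060 to 0.20 for SOCS3, from -0.15 to 0.11 for SOCS4 and from -0.085 to 0.050 for SOCS6 without LPS, and from -0.18 to 0.028 for SOCS4 with LPS. In shNR4A3 against shNT cells it ran from -0.17 to 0.46 for SOCS1 without LPS and from -0.11 to 0.25 for CISH with LPS. Between the knockdown lines it ran from -0.23 to 0.015 for SOCS3 without LPS and from -0.21 to 0.41 for SOCS1 with LPS. For the interactions it ran from -0.020 to 0.33 (SOCS3) and from -0.30 to 0.068 (CISH) with shNR4A2, and from -0.31 to 0.051 (CISH) with shNR4A3. SOCS1, SOCS2 and CISH had at most 103 reads in any LPS library, and what depth contributes to their spread was not tested.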
